A study of Mus musculus with 3 samples.

Results

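Endothelial and blood progenitor genes were examined in the embryonic region of wild-type mouse embryos at the early headfold (EHF) stage. The 10 genes were *Kdr*, *Flt1*, *Tek*, *Tie1*, *Pecam1*, *Tal1*, *Lmo2*, *Gata2*, *Runx1*, and *Fli1*, chosen by symbol, and all 10 were present among the 30854 symbols of the signal table. Total RNA was hybridized to 3 Illumina Mouse-6 bead arrays, replicates 1, 2, and 3, which form the only group. The strain is given as Cd-1 in the sample labels and as ICR in the study's methods, and no allele, treatment, or time course was involved. Embryos were cut at the boundary with the extraembryonic tissues and the embryonic part was kept, so the yolk sac was not part of the intended sample. The design text speaks of several samples per well, and the sources do not say whether RNA was pooled over embryos, so the spread between arrays may be partly technical. With a single group, the comparison that the design allows is that of each gene with the background of its own array.

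Endothelial and blood cells arise in the mesoderm that leaves the primitive streak. Cells carrying the vascular endothelial growth factor (VEGF) receptor *Kdr* give rise to both lineages, and the first blood islands form in the yolk sac. The transcription factors *Tal1*, *Lmo2*, and *Gata2* act together in one DNA-binding complex with *Ldb1*, and the ETS factor *Etv2* acts early in the same mesoderm. *Flt1*, *Tek*, *Tie1*, and *Pecam1* are then carried by vessels as these form, and *Runx1* is required for definitive blood.

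Of the 10 genes, 3 were detected on every array, and all 3 encode nuclear regulators of blood and vessel progenitors, namely *Lmo2*, *Gata2*, and *Tal1*. Detection was taken as a detection p under 0.01, where the detection p gives the proportion of the array's negative-control probes with an equal or brighter signal. No receptor and no adhesion molecule of the list met this threshold on all 3 arrays. For the receptor *Flt1* this rests on a detection p that combines 2 probes and passed on 1 array. Its mean level above background, 1.13, was near the 1.21 of *Tal1*. Among all symbols, 20.6% were detected on every array, and the 3 of 10 here is near that share. The 3 detected genes have 1 probe each, whereas *Kdr*, *Flt1*, and *Pecam1* have 2. On at least 1 array, 6 of the 10 genes were detected, against 33.0% of all symbols, and 4 genes were detected on none. In bulk RNA, fewer cells of a type and less RNA per cell cannot be told apart. The median level of the 10 genes was -0.0021 relative to the background level on the log2 scale, and that of all symbols was -0.47. Each array's background level is the dimmest signal that still passed detection, taken over single-probe symbols with at least 1 control as bright, and it was 6.69, 6.66, and 6.58 on replicates 1, 2, and 3 as deposited.

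**Figure D1:**
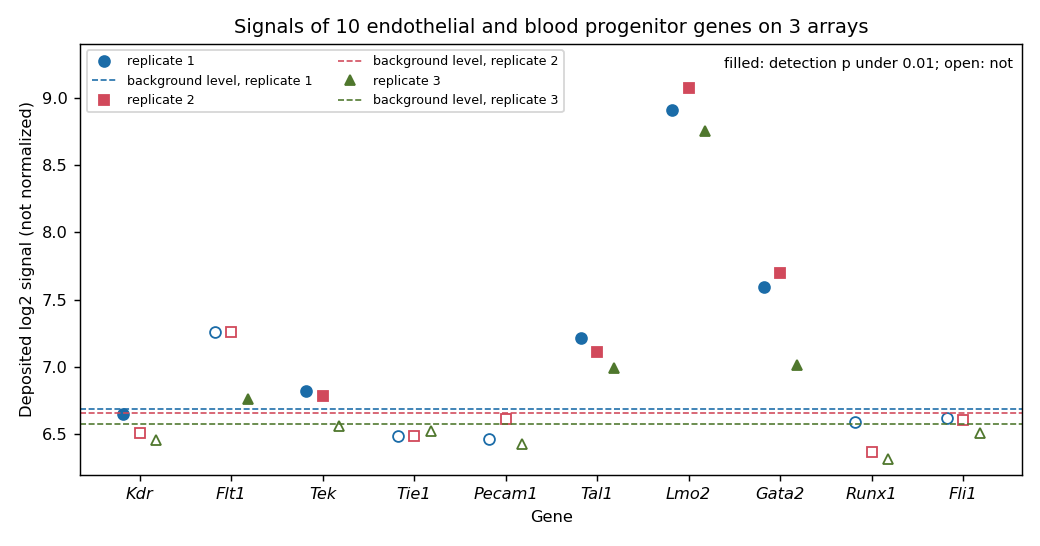
Deposited log2 signal (vertical axis, not normalized between arrays) of the 10 genes (horizontal axis) on replicates 1, 2, and 3, with the background level of each array as a dashed line. Filled symbols have a detection p under 0.01, and *Lmo2*, *Gata2*, and *Tal1* are filled and above the lines on all 3 arrays, whereas the single filled symbol of *Kdr* lies below its line because its detection p combines 2 probes.

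*Lmo2*, a LIM-domain adaptor that bridges DNA-binding factors, stood farthest above its background. Its log2 signals as deposited were 8.91, 9.08, and 8.75 on replicates 1, 2, and 3. None of the 936 negative controls was as bright on any array, which allows a share of up to 0.321% by counting error alone. After background correction and quantile normalization it exceeded background by 3.82 ± 0.16 in log2 units (SD, n = 3), with an adjusted p of 4.21e-139 in the one-sided limma test. That p rests on a standard error of 0.15 that the fit gave to every gene, and the highest adjusted p over 8 alternatives was 0.000118. All 3 arrays were high, and the lowest of them lay 3.66 above background. A single-probe gene brighter than every control lies above the background level by construction, so the limma p adds no separate support for detection. The same holds for *Gata2* and *Tal1*.

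*Gata2*, a zinc-finger factor of blood progenitors that trophoblast and other tissues also use, was the next of the detected regulators. Its signals were 7.59, 7.70, and 7.01, with no control as bright on any array. The level was 1.78 ± 0.48 above background (SD, n = 3), with an adjusted p of 1.79e-31 in limma and of at most 0.00856 over the alternatives. Replicate 3 was the lowest, at 1.26, and replicate 2 the highest, at 2.20. *Tal1*, the basic helix-loop-helix factor needed for all blood, gave signals of 7.22, 7.11, and 6.99, again with no control as bright. Its levels above background were close to each other, at 1.22, 1.18, and 1.22 (mean 1.21, SD 0.03, n = 3). The adjusted p in limma was 4.36e-15, and at most 0.000889 over the alternatives.

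The other transcription factors did not reach detection on any array. *Runx1*, the DNA-binding subunit of the core-binding factor, had signals of 6.59, 6.37, and 6.31, and detection p-values of 0.111, 0.888, and 0.818. Its level was -0.57 relative to background (SD 0.31, n = 3), and on replicates 2 and 3 most negative controls were brighter than its probe. *Fli1*, an ETS factor of endothelium and blood, had signals of 6.62, 6.61, and 6.51. Its detection p-values of 0.0598, 0.0267, and 0.0556 were all low without passing 0.01, and its level was -0.22 (SD 0.11, n = 3). Both adjusted p-values in limma rounded to 1.00, which does not show that the transcripts were absent, since how well each probe hybridizes was not tested.

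Among the receptors, *Tek*, the angiopoietin receptor Tie2, was detected on the most arrays, 2 of the 3. Its signals were 6.82, 6.78, and 6.56, and 1, 1, and 13 of the 936 controls were at least as bright. Replicates 1 and 2 thus passed with a detection p of 0.00107 each, and replicate 3 did not, at 0.0139. The level was 0.22 ± 0.26 above background (SD, n = 3), a difference smaller than the spread between arrays, with an adjusted p of 0.279 in limma. Replicate 3 decided this call. Without it *Tek* was detected on both remaining arrays, and its level was 0.42 with an adjusted p of 0.00336. *Tie1*, the orphan receptor related to *Tek*, had signals of 6.49, 6.49, and 6.53 with detection p-values of 0.645, 0.333, and 0.0299, and was detected on no array (level -0.38, SD 0.12, n = 3).

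*Flt1*, a VEGF receptor that binds VEGF tightly and signals weakly, was measured by 2 probes, and its mean signal and its detection call differed. The mean signals of 7.26, 7.26, and 6.76 exceeded the background level on all 3 arrays, by 0.57, 0.60, and 0.18. The detection p combined over its probes was 0.125, 0.0833, and 0.00605, so that only replicate 3, the array with the lowest signal, passed. A mean cannot exceed its highest part, so at least 1 of the 2 probes lay above the background level on each array. The combined values correspond to sums of the 2 detection p-values of 0.5, 0.408, and 0.110. If the brighter probe had a detection p under 0.01, the other had at least 0.490 on replicate 1, 0.398 on replicate 2, and 0.100 on replicate 3. The level averaged over both probes was 1.13 ± 0.44 above background (SD, n = 3), and limma called it with an adjusted p of 2.01e-13, at most 0.0219 over the alternatives. By this test 4 of the 10 genes were above background, against 25.7% of all symbols. Which transcript form each *Flt1* probe reads is not given in the files, so a membrane-bound and a soluble form could not be separated.

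*Kdr*, the main signalling VEGF receptor and the marker of the common progenitor, showed the opposite combination. Its mean signals were 6.65, 6.51, and 6.46, below the background level on every array. Yet replicate 1 had a combined detection p of 0.00219, which corresponds to a sum of 0.0662, so neither of its 2 probes had a detection p above that value there. On replicates 2 and 3 the sums were 0.614 and 0.411, and the combined values of 0.189 and 0.0846 did not pass. The level was -0.36 (SD 0.24, n = 3) and was not above background in limma. *Pecam1*, an adhesion molecule of endothelial junctions and the third gene with 2 probes, had signals of 6.47, 6.62, and 6.43. It was detected on no array, with combined values of 0.855, 0.0219, and 0.133 and a level of -0.42 (SD 0.28, n = 3). For these 3 genes the sums of p-values were whole multiples of 1 in 936 in all 9 values, within a tolerance of 0.01 steps.

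**Figure D2:**
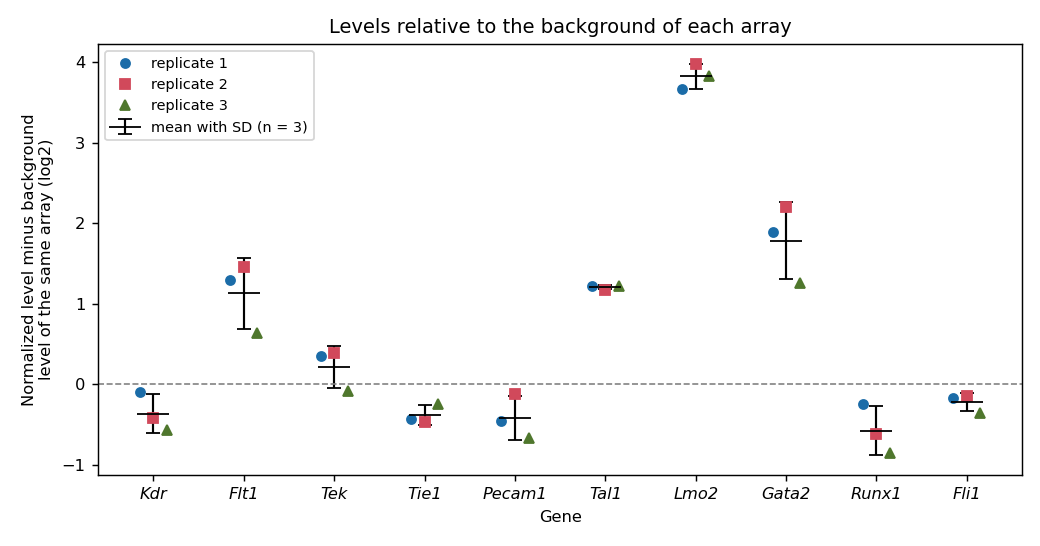
Level minus the background level of the same array (vertical axis, log2, after normexp background correction and quantile normalization) for the 10 genes (horizontal axis), with each array as a symbol and the mean with its SD over 3 arrays in black. *Lmo2*, *Gata2*, *Tal1*, and *Flt1* lie above 0 on every array, and *Tek* straddles 0.

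The error over beads describes the noise within an array only and not the spread between samples, each probe being carried by 36 to 61 beads on an array for *Lmo2*, *Gata2*, and *Tal1*. Relative to the median of each array, *Tal1* had signals of 0.65, 0.60, and 0.57 on the log2 scale, with standard errors over beads of 0.06, 0.07, and 0.07. *Tal1* thus varied little between the arrays on this scale. *Lmo2* was at 2.34, 2.56, and 2.33, with standard errors of 0.08, 0.11, and 0.08. *Gata2* was at 1.02, 1.18, and 0.59, with standard errors of 0.06, 0.09, and 0.08, with replicate 3 the lowest. The SD of the normalized level was 0.34 for *Gata2*, 0.29 for *Lmo2*, and 0.20 for *Tal1*, where symbols detected on all arrays had a median SD of 0.17. On 2 other scales only *Gata2* exceeded the median SD of these symbols. For the level above background that median was 0.23, against 0.48, 0.16, and 0.03 for *Gata2*, *Lmo2*, and *Tal1*. For the deposited signal it was 0.25, against 0.37, 0.16, and 0.11. With 1 sample on an array these differences have no test.

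*Gata2*, *Flt1*, and *Tek* were highest on replicate 2 and lowest on replicate 3 after normalization. Markers of visceral endoderm and of extraembryonic ectoderm and trophoblast were set beside them. Of the 11 lists, only these had summed normalized signals in the same order. The study found visceral endoderm cells scattered in the gut endoderm of the embryonic region at this stage. Its in situ signal for *Apoc2* was confined to extraembryonic visceral endoderm. Whether marker signal here came from embryonic or extraembryonic cells was not tested. The normalized levels of *Gata2* were 6.57, 7.0, and 6.33, and those of *Flt1* were 5.98, 6.27, and 5.70. Those of *Tek*, close to background, were 5.03, 5.19, and 4.98. Of the 14 visceral endoderm markers 13 were detected on all arrays, against 20.6% of all symbols (*Spink3*, *Apoa1*, *Ttr*, *Amn*, *Apoe*, *Apob*, *Trf*, *Apoa2*, *Apoa4*, *Hnf4a*, *Cubn*, *Rbp4*, and *Apoc2*, but not *Afp*). The normalized signals of the list on the linear scale summed to 11720, 14350, and 8973. The sum, which the brightest genes dominate, had the order of *Gata2*, whereas 7 of the 14 single markers had it. Of the 13 markers of extraembryonic ectoderm and trophoblast, 4 were detected on all arrays, among them *Rhox5*, *Tfap2c*, and *Plac1*. That count is near the 20.6% of all symbols. The list summed to 1187, 1463, and 918, and 6 of the 13 single markers had that order. This sum also leans on its brightest gene, *Rhox5*, at 4.70, 4.92, and 3.45 above background on replicates 1, 2, and 3. The defining genes of the list, *Elf5* and *Ascl2*, and the giant cell gene *Prl3d1* were detected on no array. *Hand1* of the same list was detected on 2 arrays and *Esrrb* on 1, and 6 of the 13 were detected on at least 1. The order of *Lmo2* depended on the scale, since its normalized level was highest on replicate 3, at 8.89, and its deposited signal on replicate 2, at 9.08. *Tal1* had its highest normalized level on replicate 3, at 6.29, and its highest deposited signal on replicate 1, at 7.22. The deposited signal of *Tek* was also highest on replicate 1, at 6.82 against 6.78 on replicate 2. That of *Flt1* was 7.26 on both. Relative to the array median, *Tek* and *Flt1* were again highest on replicate 2 and lowest on replicate 3. Endothelial surface and junction genes summed to 2648, 2568, and 3108, and endothelial transcription factors to 1889, 2091, and 2463. The list of extraembryonic mesoderm and allantois summed to 1060, 1310, and 1179. The part of any of these tissues in the signals of *Gata2*, *Flt1*, and *Tek* was not tested, including visceral endoderm, extraembryonic ectoderm, and trophoblast.

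Binding partners of these regulators were compared with the same background. Of 13 listed partners of the *Tal1*-*Lmo2* and *Runx1* complexes with a symbol, 7 were detected on all arrays, against 20.6% of all symbols. The median level of the list was 1.22 above background, and which cells carried these transcripts was not tested. The detected partners were *Ldb1*, *Ldb2*, *Tcf3*, *Cbfb*, *Ssbp3*, *Ssbp4*, and *Kdm1a* (listed as *Aof2*). *Ldb1*, which joins *Lmo2* into the complex, was 5.62 ± 0.39 above background (SD, n = 3). *Cbfb*, the partner that stabilizes *Runx1* on DNA, was at 5.11 ± 0.23 although *Runx1* itself was not detected. *Tcf3*, the E protein that pairs with *Tal1*, was at 5.01 ± 0.17, and the demethylase *Kdm1a* at 5.56 ± 0.24. Of the remaining partners, *Gata1* (detection p of 0.0950, 0.235, and 0.891) and *Lyl1* (0.0641, 0.854, and 0.0951), both of blood, were detected on no array, as were *Tcf4*, *Ssbp2*, and *Cbfa2t3*, and *Tcf12* was detected on 2.

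Of 16 endothelial transcription factors, 7 were detected on all arrays, against 20.6% of all symbols, with a list median of 0.61. They were *Etv2* (listed as *Etsrp71*), *Ets2*, *Sox7*, *Hhex*, *Hey1*, *Hey2*, and *Gata6*. *Etv2*, the ETS factor that starts the endothelial and blood programme, had signals of 9.48, 9.25, and 9.56 and lay 4.43 ± 0.30 above background (SD, n = 3). *Gata6* at 3.95 ± 0.23, *Ets2* at 3.52 ± 0.41, and *Hey1* at 3.03 ± 0.46 followed, and all of these are also used by endoderm, trophoblast, or somites. *Erg*, a later endothelial ETS factor, was detected on no array. The ligands and co-receptors of the VEGF and angiopoietin pathways counted 3 of 14 detected, near the share over all symbols, and a list median of -0.43. *Vegfb* was 4.34 ± 0.13 and *Nrp1*, a VEGF co-receptor, 3.04 ± 0.06 above background, and *Vegfc*, the ligand of lymphatic growth, was at 1.04 ± 0.20. *Vegfa*, with 3 probes, passed on replicates 2 and 3 and missed on replicate 1 with a combined detection p of 0.0304. The angiopoietins *Angpt1*, *Angpt2*, and *Angpt4* were detected on no array, nor was the lymphatic receptor *Flt4*.

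Surface and junction genes of endothelium were detected in 6 of 24 cases, near the share over all symbols, with a list median of -0.18. These were *Egfl7*, *Ramp2*, *Esam*, *Aplnr*, *Plvap*, and *Rhoj*. *Egfl7*, a secreted endothelial protein, lay 3.32 ± 0.29 above background (SD, n = 3), *Ramp2*, a subunit of the adrenomedullin receptor, 2.48 ± 0.11, *Esam* 1.80 ± 0.34, and the apelin receptor *Aplnr* 1.71 ± 0.75. *Cdh5*, the cadherin of endothelial junctions, had signals of 6.51, 6.55, and 6.40 and detection p-values of 0.490, 0.111, and 0.415. *Eng*, *Emcn*, and *Cd34* were likewise detected on no array.

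Few blood genes were detected. The 22 genes of blood progenitors and blood cells had a list median of -0.42. Of them 1 was detected on all arrays, *Hhex*, which endoderm also expresses, against 20.6% of all symbols. That count was 2 without replicate 2, 3 at a detection p under 0.05 or in the limma test, and 6 on at least 1 array. The integrin *Itga2b* of the earliest blood progenitors, the pan-blood antigen gene *Ptprc*, and *Klf1* of red cells were each detected on no array. Of 11 primitive erythroid markers with a symbol, 1 was detected, against 20.6% of all symbols. This was *Hba-a1*, at 2.58 ± 0.17 above background (SD, n = 3). The embryonic globins *Hbb-bh1*, *Hbb-y*, and *Hba-x* were detected on no array, with signals between 6.36 and 6.58. *Hba-a1* has a near-identical copy in the genome, so its signal cannot be assigned to a single gene. Of the 11 decidua and maternal blood markers, 2 were detected on all arrays, near the share over all symbols. They were *Des* and adult *Hbb-b1*, the latter at 1.60 ± 0.44. The *Hbb-b1* symbol pools several probes and belongs to a family with near-identical copies. The macrophage markers *C1qa*, *C1qb*, *Cd68*, and *Lyz2* and the decidual gene *Prl8a2* were detected on no array.

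**Figure D3:**
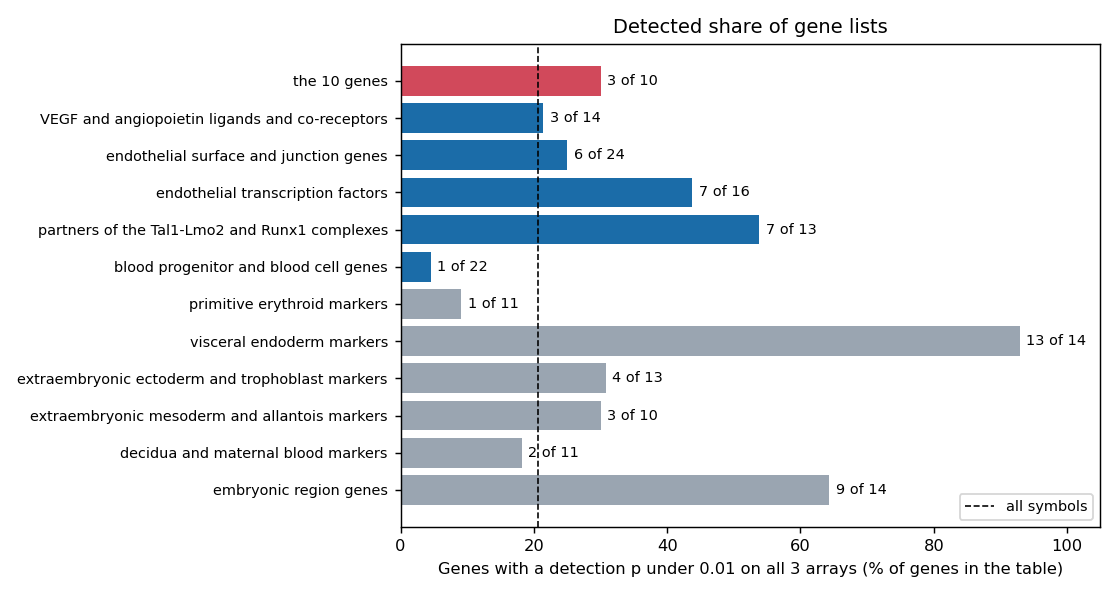
Share of the genes in the table with a detection p under 0.01 on all 3 arrays (horizontal axis, percent) for the 10 genes, 5 pathway lists (blue), and 6 lists of markers of other cells (grey), with the number detected at each bar and the share over all symbols as a dashed line. Partners of the regulators stand at 7 of 13, blood genes at 1 of 22.

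**Figure D4:**
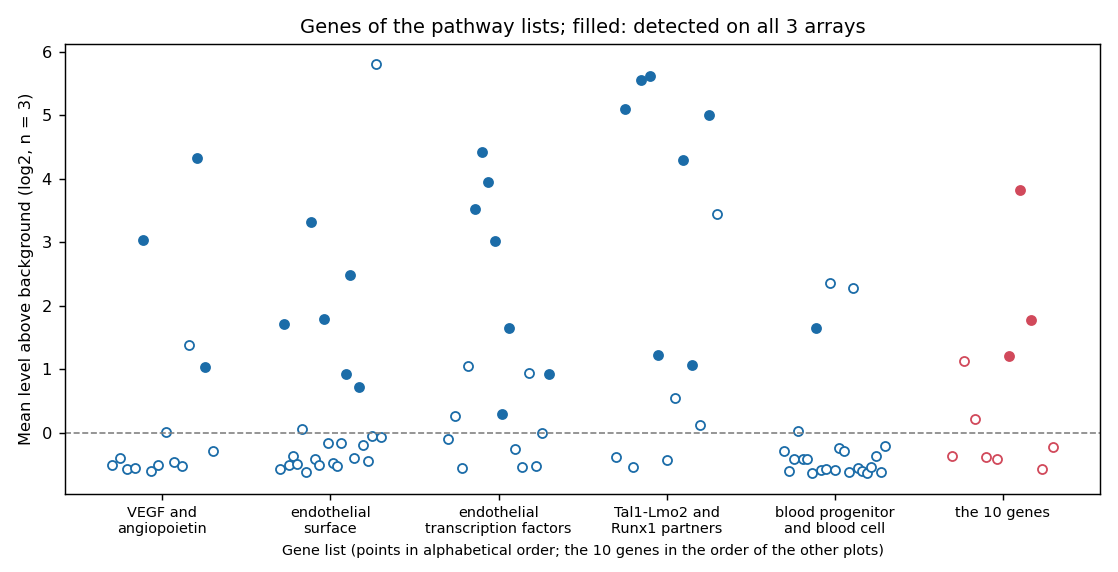
Mean level above background (vertical axis, log2, n = 3 arrays) of each gene in the 5 pathway lists and of the 10 genes (horizontal axis), with filled points for genes detected on all 3 arrays. Most open points lie below 0, and the highest open point is *Stab1* at 5.80, a gene with 2 probes.

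The disagreement seen for *Flt1* recurred in the pathway lists. Genes with several probes whose mean signal exceeded the background level on every array, but which were not detected on all of them, were *Vegfa*, *Stab1*, *Ets1*, *Elk3*, *Mef2c*, *Tcf4*, *Ssbp2*, *Kit*, and *Meis1*. *Stab1*, a scavenger receptor of sinusoidal endothelium, had mean signals of 10.90, 10.61, and 10.61 and combined detection p-values of 0.0112, 0.0305, and 0.117. *Kit*, the stem cell factor receptor shared by blood and germ cells, had 7.85, 7.81, and 7.67 with 0.227, 0.0197, and 0.00396.

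Start-site sequences were taken from the RefSeq promoter table of the assembly GRCm38.p6, which held windows for 7 of the 10 genes (not for *Pecam1*, *Lmo2*, and *Fli1*). Shown are the 250 bases before the outermost annotated start of *Tal1* and *Gata2*, which were detected on all arrays, and of *Tie1* and *Runx1*, which were detected on none, each 5′ to 3′ on the strand of the gene. Capitals mark letters that match motifs of the factors under study, searched on both strands: GATA (the run AGATAA, also with T as its first letter or G as its last), ETS (CCGGAA or AGGAAG), E-box (CANNTG), and RUNX (TGTGGT).
Tal1, chr4:115056176-115056425, plus strand: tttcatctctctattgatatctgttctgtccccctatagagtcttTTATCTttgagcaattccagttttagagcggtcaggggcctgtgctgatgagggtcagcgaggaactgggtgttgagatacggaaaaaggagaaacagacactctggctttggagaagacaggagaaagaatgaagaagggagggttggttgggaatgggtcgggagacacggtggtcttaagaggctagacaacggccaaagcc
Gata2, chr6:88193641-88193890, plus strand: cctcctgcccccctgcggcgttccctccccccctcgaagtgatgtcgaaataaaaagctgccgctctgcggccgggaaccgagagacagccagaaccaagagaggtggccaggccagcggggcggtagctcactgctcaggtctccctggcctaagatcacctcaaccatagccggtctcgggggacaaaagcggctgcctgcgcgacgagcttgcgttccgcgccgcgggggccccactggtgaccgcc
Tie1, chr4:118489850-118490099, minus strand: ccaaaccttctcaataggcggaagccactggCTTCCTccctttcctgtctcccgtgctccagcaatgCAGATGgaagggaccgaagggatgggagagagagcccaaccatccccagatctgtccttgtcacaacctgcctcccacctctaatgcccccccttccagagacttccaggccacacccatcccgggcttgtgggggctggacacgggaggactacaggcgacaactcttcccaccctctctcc
Runx1, chr16:92826075-92826324, minus strand: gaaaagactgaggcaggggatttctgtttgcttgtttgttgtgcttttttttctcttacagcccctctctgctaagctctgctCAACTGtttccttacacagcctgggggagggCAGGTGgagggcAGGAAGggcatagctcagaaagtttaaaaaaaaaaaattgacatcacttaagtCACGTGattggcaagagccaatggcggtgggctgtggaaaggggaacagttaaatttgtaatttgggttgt
The *Tal1* window held 1 GATA match, at position -205 from the start, a motif present in 26.5% of 32851 windows of the same length. The *Gata2* window held none of the motifs and had 67.2% G and C with 22 CpG, where the median window had 52.4% and 6. The *Tie1* window held 1 ETS and 1 E-box match, and the *Runx1* window, at its distal start, held 1 ETS match and 3 E-box matches with 45.6% G and C and 2 CpG. ETS matches occurred in 38.2% of all windows, E-box matches in 66.2%, and RUNX matches in 14.0%. No RUNX match was found in these 4 windows. The matches describe these letters only, and binding at these windows was not measured.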

How the data were processed

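Total RNA of 3 arrays was analysed as 1 group, with each array taken from its sample label. The authors deposited, per gene symbol and without normalization between arrays, a log2 signal averaged over probes, the mean number of beads, a standard error over beads on the linear intensity scale, and a detection p-value. Partek is named in the submitters' processing notes, and further settings are not given in the sources used here. Symbols with 1 probe were those with whole bead numbers whose detection p was a multiple of 1 in 936 (tolerance 0.002), 21986 in all. For 2 probes the deposited detection p was turned back into the sum of both p-values.

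Levels were obtained in limma 3.58.1 (R 4.3.3): normexp correction fitted on these symbols, an offset of 16, quantile normalization, and log2. The difference from the background level was tested one-sided (lmFit, eBayes) over 30854 symbols with Benjamini-Hochberg adjustment at 0.05. The test was checked on simulated data, where most genes set only slightly above background were missed, so a gene without a call may still lie above it. Precision is limited by the number of arrays. A standard error over beads was set to the log2 scale by dividing by the linear signal and the natural log of the base. Python 3.11.15, numpy 2.4.6, and pandas 2.3.3 were used.

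The genes and lists were chosen with earlier results of these data known. All 10 genes are named, and in the 11 lists the detected genes are named (except 1 that is counted but not reported here by name), with values for up to 4 farthest above background. Genes named for not being detected, or for disagreeing probes, were picked after their values were seen. Of 159 listed genes 157 were matched, 9 by an older symbol in RefSeq. Alternatives were other detection thresholds, fewer arrays, other normalizations, an offset of 50, another background level, and leaving out each array.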

Additional observations from a re-analysis of the deposited data

How the results depend on the processing

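*Tal1*, *Lmo2*, and *Gata2* were called in each of the 9 alternatives for the number of genes above background, which gave 3 or 4 of 10 except for detection on at least 1 array, which gave 6 (adding *Kdr*, *Flt1*, and *Tek*), since fewer arrays had to pass. That alternative also gave 83 genes in place of 55 over the pathway and marker lists and 10172 in place of 6357 over all symbols. *Tek* was the fourth gene at a detection p under 0.05, on at least 2 arrays, and without replicate 3. *Flt1* was the fourth in the limma test and by the study's cut-off on the mean signal. The study gave that cut-off for normalized levels, and here it was applied to the deposited signals, which are not normalized. In the limma test 4 genes were above background, 4 or 5 without a replicate, and 7 (adding *Kdr*, *Tek*, and *Fli1*) when the background level was the median of symbols with a detection p above 0.5, a more lenient level by construction. The level of *Flt1* ranged from 0.43 to 1.76 over 8 alternatives, of *Tal1* from 0.47 to 1.83, of *Gata2* from 0.78 to 2.41, and of *Lmo2* from 2.26 to 4.45, all past the threshold. For the remaining genes the low signal limits any call, since their levels lay between -0.57 and 0.22 from background.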

Other observations

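The 14 genes of the embryonic region included genes of the primitive streak, mesoderm, and neural plate. Of them 9 were detected on all arrays, against 20.6% of all symbols. Among these, *T* of the primitive streak lay 5.23 ± 0.49 above background on the log2 scale (SD, n = 3). *Otx2* of the anterior neural plate was at 4.46 ± 0.11, *Pou5f1* at 3.31 ± 0.21, and *Meox1* of the somites at 3.26 ± 0.17. The others were *Fgf8*, *Tbx6*, *Dll1*, *Mesp1*, and *Mixl1*. Of the 10 genes of extraembryonic mesoderm and allantois, 3 were detected on all arrays, near the 20.6% of all symbols. They were *Msx1* (4.36 ± 0.18), *Bmp4* (2.85 ± 0.13), and *Foxf1* (1.04 ± 0.50, listed as *Foxf1a*). *Tbx4* of the allantois was detected on 1.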
